A study of Mus musculus with 27 samples.

Results

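The subcortical maternal complex is a set of maternal proteins that the oocyte stores for the early embryo, and 8 of its genes are described here (Nlrp5, Ooep, Tle6, Khdc3, Padi6, Nlrp2, Nlrp4f and Zbed3) out of 20847 genes listed in any of 4 count tables. They were picked by symbol, by a rule that uses no measured value, though earlier results of these data were known when the list was made. The 8 genes are all listed in both oocyte tables, 6 of them in the stem cell table, which does not list Nlrp5 or Nlrp2, and 7 in the round spermatid table, which does not list Nlrp2.

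The study sequenced RNA from mouse cells without the writer or the readers of N6-methyladenosine (m6A), in 27 libraries and 12 groups. Germinal vesicle (GV) oocytes, which are fully grown and arrested in prophase, gave 3 Mettl3f/f Zp3-Cre+ libraries, called Mettl3 cKO here, and 4 Mettl3f/f Zp3-Cre- control libraries. Both groups carry the floxed allele, on a BDF1 X C57BL/6 X Jax#003651 background. Zp3-Cre is active in growing oocytes and not in the cells around them. Post-GV oocytes gave 2 Ythdf2-/- and 3 Ythdf2+/- libraries on a CB6F1 X C57BL/6 background, so the controls carry 1 disrupted allele. KH2 embryonic stem cells (C57BL/6 x 129/Sv) gave 2 libraries for each of Mettl3-/-, Ythdf1-/-Ythdf2-/-Ythdf3-/- (triple knockout), Ythdf1-/-, Ythdf2-/-, Ythdf3-/- and wild type, and sorted round spermatids gave 2 Ythdf2-/- libraries and 1 Ythdf2+/+ library (CB6F1 X C57BL/6). Ages, deleted exons and clone names are missing from the labels. The oocyte protocol speaks of oocytes collected from each mouse, but the replicate numbers are not said to mark animals. Nothing says that stem cell replicates were separate cultures, so p-values measure only the spread between these samples.

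Proteins of the complex gather beneath the oocyte membrane and build the cytoplasmic lattices, fibrous stores of protein that also hold parts of the translation machinery. Nlrp5 (also called Mater), Ooep (Floped), Tle6 and Khdc3 (Filia) form its core, and embryos of females without Nlrp5, Ooep or Tle6 mostly fail during cleavage. The genes are transcribed during oocyte growth, and many maternal mRNAs are cleared as the oocyte matures. Mettl3 is the catalytic subunit that writes m6A, and the Ythdf proteins bind it in the cytoplasm, where Ythdf2 is known for promoting decay of the bound mRNA.

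The start regions of the 4 genes that passed a test in oocytes are shown because the members are transcribed from separate loci, so their flanks can be set side by side. The sequences are RefSeq's for GRCm38.p6, with 250 bases before and 50 after the annotated start, written 5′ to 3′ on the gene's strand. The table holds 12 such entries of 300 bases for 8 of 8 members. Capitals mark the E-box letters CANNTG, which read the same on both strands and are bound by helix-loop-helix factors such as Figla, and the letters TAATTG or TAATTA on either strand, which the oocyte factor Nobox is known to bind. In the Khdc3 window 2 of the E-box matches overlap each other. The Nlrp5 window is chr7:23385639-23385938 on the plus strand. The Khdc3 window is chr9:73102148-73102447 on the plus strand. The Nlrp2 window is chr7:5350986-5351285 and the Nlrp4f window chr13:65205667-65205966, both on the minus strand.
Nlrp5: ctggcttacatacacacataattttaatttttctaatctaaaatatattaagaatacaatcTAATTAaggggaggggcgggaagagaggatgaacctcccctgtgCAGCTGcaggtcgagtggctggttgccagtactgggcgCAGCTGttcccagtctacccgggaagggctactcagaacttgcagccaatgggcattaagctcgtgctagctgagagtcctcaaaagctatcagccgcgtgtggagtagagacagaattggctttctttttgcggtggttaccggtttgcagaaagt
Khdc3: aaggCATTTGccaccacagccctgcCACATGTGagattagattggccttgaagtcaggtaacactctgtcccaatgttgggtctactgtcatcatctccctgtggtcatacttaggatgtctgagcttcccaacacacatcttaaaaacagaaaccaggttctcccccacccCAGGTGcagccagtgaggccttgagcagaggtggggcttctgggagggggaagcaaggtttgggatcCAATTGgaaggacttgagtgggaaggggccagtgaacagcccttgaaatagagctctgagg
Nlrp2: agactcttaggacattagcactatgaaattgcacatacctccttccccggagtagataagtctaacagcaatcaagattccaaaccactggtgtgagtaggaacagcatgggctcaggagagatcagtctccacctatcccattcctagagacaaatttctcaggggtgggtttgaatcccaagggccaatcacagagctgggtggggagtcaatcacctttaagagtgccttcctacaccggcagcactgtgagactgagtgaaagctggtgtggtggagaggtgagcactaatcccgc
Nlrp4f: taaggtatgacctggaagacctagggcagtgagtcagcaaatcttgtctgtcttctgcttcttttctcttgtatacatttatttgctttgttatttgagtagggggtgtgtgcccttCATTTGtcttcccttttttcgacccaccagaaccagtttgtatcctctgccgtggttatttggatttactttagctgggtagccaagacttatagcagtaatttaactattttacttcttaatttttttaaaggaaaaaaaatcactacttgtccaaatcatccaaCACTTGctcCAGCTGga

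CANNTG occurs 2 times in the Nlrp5 window, 5 times in the Khdc3 window, 3 times in the Nlrp4f window and 0 times in the Nlrp2 window. At least 1 such match is held by 72.3% of all 32851 promoter entries, and at least 3 by 17.6%. TAATTG or TAATTA is present in the Nlrp5 window shown, in the Ooep and Padi6 windows and in 12.4% of all entries. A further RefSeq start of Nlrp5, downstream of the one shown, has 0 such matches and 2 of CANNTG. The matches are a description of letters and not of binding. RefSeq's Khdc3 and Nlrp4f starts lie inside the GENCODE M21 gene, not at its outer end.

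GGACT is a frequent sequence context of m6A, and its occurrences in each member's longest protein-coding GENCODE M21 transcript are given because the GV comparison removes the writer of that mark. The Nlrp5 transcript (3508 bases) holds 7, which is 2.00 per kb and more than in 89.2% of 12494 tested genes. Tle6 holds 4 (1.99 per kb), Padi6 4 (1.71 per kb), Nlrp4f 5 (1.41 per kb), Ooep 1 and Nlrp2 1, while Khdc3 and Zbed3 hold 0. The median of the tested genes was 1.04 per kb. No methylation was measured in the files used here, so a match does not say that the adenosine carries the mark. The sites of the 3 members called in GV oocytes, 7 in Nlrp5, which was higher, and 1 in Nlrp2 and 5 in Nlrp4f, which were lower, are written below with 8 bases on each side, the motif in capitals and its first base numbered from the transcript's 5′ end.
Nlrp5 at 894: gatgatatGGACTctgtcctc
Nlrp5 at 1087: tggttgaaGGACTgtctgcat
Nlrp5 at 1947: cagaagatGGACTtgaaggtc
Nlrp5 at 2154: aaggagctGGACTtgggcgac
Nlrp5 at 2687: cagcctggGGACTgaaggagt
Nlrp5 at 2931: gaactagtGGACTgccaactc
Nlrp5 at 3058: tgtgtgagGGACTgaagcaaa
Nlrp2 at 803: tcctggagGGACTgtgtgatt
Nlrp4f at 233: aagtttaaGGACTttctcata
Nlrp4f at 1372: gggcatgtGGACTgacacatt
Nlrp4f at 2522: caatgttgGGACTacctttct
Nlrp4f at 2601: aggatgaaGGACTgaagattc
Nlrp4f at 3003: atgtacttGGACTgtggatta

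The tables as deposited hold from 6484397 to 18181397 assigned counts per GV library, 12409822 to 25015081 per post-GV library, 612598 to 1111764 per stem cell library and 18843689 to 32759740 per spermatid library. Levels are CPM, counts scaled to library size after TMM normalization, and levels between genes are compared only as CPM per kb of exon. Calls rest on edgeR's quasi-likelihood test, with p-values adjusted by Benjamini-Hochberg over the whole table and a threshold of 0.05. Fold changes are log2 of mutant over control ± standard error. Of 9 oocyte markers, 8 are listed in both oocyte tables and none of them was at 0 in any library.

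In GV oocytes the targeted gene was low in the mutants. Mettl3 stood at 3.47, 1.35 and 0.901 CPM in the cKO libraries, against 41.7, 28.1, 13.2 and 25.8 CPM in the controls, a log2 change of -3.77 ± 0.57 (edgeR adjusted p = 0.00182). The groups did not overlap, and the direction is the one the labels give. Markers of the surrounding granulosa and cumulus cells differed too. Their summed level over 12 of 14 listed markers was 69.9, 234 and 135 CPM in cKO libraries, against 302, 657, 1500 and 334 CPM in controls, with 6 of 11 tested markers called lower, 0 called higher, and Fshr at 0 in 1 cKO library. In bulk libraries fewer cells of a type and less RNA per cell cannot be told apart. The part of these cells in the results on the complex was not tested beyond the leave-out values given with them.

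Loss of Mettl3 in growing oocytes left the complex neither uniformly higher nor lower. Nlrp5 rose, while Nlrp2 and Nlrp4f fell, so 3 of 8 members were called, against 28.8% of all 13551 tested genes (15.4% higher, 13.4% lower). The same 3 members are the ones whose libraries do not overlap between groups, against 39.3% of all tested genes (21% higher, 18.3% lower). The median log2 change of the members was 0.16, against 0.04 over all genes tested, so neither their share nor their median sets the members apart from the table.

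Among the core genes, Nlrp5 encodes the NLR-family protein that binds Ooep and Tle6 (chromosome 7, 23385889 to 23441922, plus strand, GRCm38). It stood at 4049, 3315 and 2752 CPM in cKO libraries, against 2280, 881, 720 and 1492 CPM in controls. Each cKO library lay above every control, and the change was 1.33 ± 0.37 on the log2 scale, a 2.51-fold rise (edgeR adjusted p = 0.0238). The call was lost without cKO library 1 (1.12, adjusted p = 0.0965), without cKO library 2 (1.28, adjusted p = 0.0665), without control 2 (1.17, adjusted p = 0.0684) and, at 0.72 ± 0.27, without controls 2 and 3 (edgeR adjusted p = 0.0842). These 2 controls had the highest granulosa marker sums and the lowest Nlrp5.

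Khdc3, a KH-domain protein of the core also known for a role in genome stability (chromosome 9, 73101836 to 73104438, plus strand), showed a similar order of libraries. It stood at 1677, 1365 and 830 CPM in cKO libraries, against 880, 431, 218 and 688 CPM in controls. Control 1 lay above cKO library 3, so the groups overlap. The log2 change of 1.22 ± 0.42 did not pass edgeR (adjusted p = 0.0545), while DESeq2 called it (1.13, adjusted p = 0.0358). Khdc3 overlaps the annotated gene Gm20509, so reads of that gene could be counted with it.

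Ooep, the KH-domain partner that bridges Nlrp5 and Tle6 (chromosome 9, 78376109 to 78378725, minus strand), had 1550, 1939 and 3336 CPM in cKO libraries, against 1909, 1480, 2175 and 1856 CPM in controls. The ranges overlap, with a log2 change of 0.29 ± 0.27 (edgeR adjusted p = 0.432). Tle6, a relative of the Groucho corepressors that is needed for the complex to assemble (chromosome 10, 81590904 to 81601073, minus strand), had 1279, 825 and 721 CPM in cKO libraries, against 1624, 636, 493 and 955 CPM in controls. Its change was 0.02 ± 0.39 (edgeR adjusted p = 0.971), and its sign turned under RLE scaling (-0.06) and in 6 other alternatives. A p above the threshold does not show that these levels were equal.

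Padi6, a peptidylarginine deiminase relative required for the cytoplasmic lattices (chromosome 4, 140727355 to 140742643, minus strand), had 6059, 4685 and 3461 CPM in cKO libraries, against 5179, 1874, 1246 and 2967 CPM in controls. The log2 change was 0.75 ± 0.42 with overlapping ranges (edgeR adjusted p = 0.208). Without control 1, which is the highest control for Nlrp5, Khdc3, Padi6 and Tle6, Padi6 and Khdc3 were both called, at 1.22 (adjusted p = 0.0229) and 1.53 (edgeR adjusted p = 0.0214). Without controls 2 and 3 they were at 0.10 (adjusted p = 0.837) for Padi6 and 0.60 (edgeR adjusted p = 0.186) for Khdc3, and neither was called.

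Nlrp5, Khdc3, Padi6 and Tle6 ranked the libraries alike. In each of the 4 genes cKO library 1 was highest and cKO library 3 lowest among the mutants, and the controls ran 1, 4, 2 and 3 from high to low. Summed over the 8 listed oocyte markers, levels ran the same way, so the order is not particular to these genes. Libraries 1 to 3 of the cKO had oocyte marker sums of 24396, 23868 and 17176 CPM. Controls 1 to 4 had 27938, 16249, 14291 and 21521 CPM. The granulosa marker sums put the controls in the reverse order, but not the cKO libraries, where library 2 had the highest sum. Nlrp2 ranked the controls as the 4 genes did, and Ooep, Zbed3 and Nlrp4f ranked neither group that way.

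**Figure D1:**
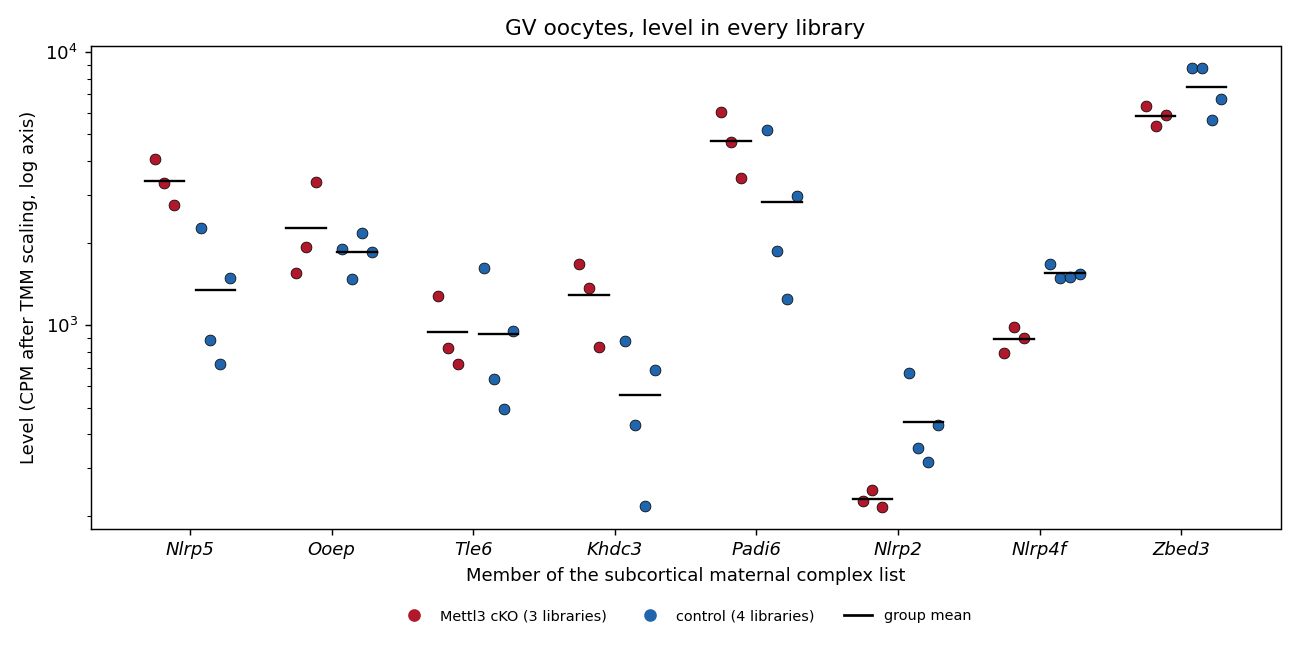
Level of each member in CPM (log axis) in every GV library, with Mettl3 cKO libraries (red, 3) left of controls (blue, 4), numbered from left to right within a group, and bars at group means. Nlrp5 points of the 2 groups do not overlap and are higher in cKO libraries, while those of Nlrp2 and Nlrp4f do not overlap and are lower.

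The 2 other NLR-family members went the other way. Nlrp4f, which is known to associate with the complex in mouse oocytes (chromosome 13, 65177111 to 65205977, minus strand), had 795, 986 and 895 CPM in cKO libraries, against 1680, 1489, 1498 and 1541 CPM in controls. It fell by 0.80 ± 0.17 on the log2 scale, and no library of one group reached the other (edgeR adjusted p = 0.00735). The call was kept in 13 of 13 alternatives, from -0.97 to -0.77.

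Nlrp2, a related maternal-effect gene (chromosome 7, 5298547 to 5351035, minus strand), had 228, 251 and 217 CPM in cKO libraries, against 672, 355, 315 and 430 CPM in controls. It fell by 0.93 ± 0.27, without overlap (edgeR adjusted p = 0.0287). The call was lost in edgeR without cKO library 1, 2 or 3 or control 4, at adjusted p from 0.0541 to 0.0686, and the log2 change then lay between -1.05 and -0.96. Without controls 2 and 3 it was -1.36 (edgeR adjusted p = 0.00587). Nlrp2 overlaps the annotated genes Gm18757 and Gm5065, and Nlrp5 overlaps Gm25196.

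Zbed3, a zinc-finger member known for spindle positioning in the dividing zygote (chromosome 13, 95323612 to 95337841, plus strand), had 6323, 5367 and 5891 CPM in cKO libraries, against 8754, 8712, 5646 and 6733 CPM in controls. Its change of -0.35 ± 0.20 did not pass (edgeR adjusted p = 0.222). It overlaps Snora47, a small nucleolar RNA, and Gm22661, and these can share reads with it.

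Because ratios within a library do not depend on how libraries are scaled, Nlrp5 was also set against its relatives library by library. Nlrp5 over Nlrp4f, as a ratio of counts, was 5.09, 3.36 and 3.07 in cKO libraries, against 1.36, 0.592, 0.481 and 0.968 in controls. Nlrp5 over Nlrp2 was 17.8, 13.2 and 12.7 in cKO libraries, against 3.39, 2.48, 2.28 and 3.47 in controls. The ratios were formed after the values were seen, from genes whose groups already lay apart in opposite directions, so their separation is a description of those same values and carries no test.

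**Figure D2:**
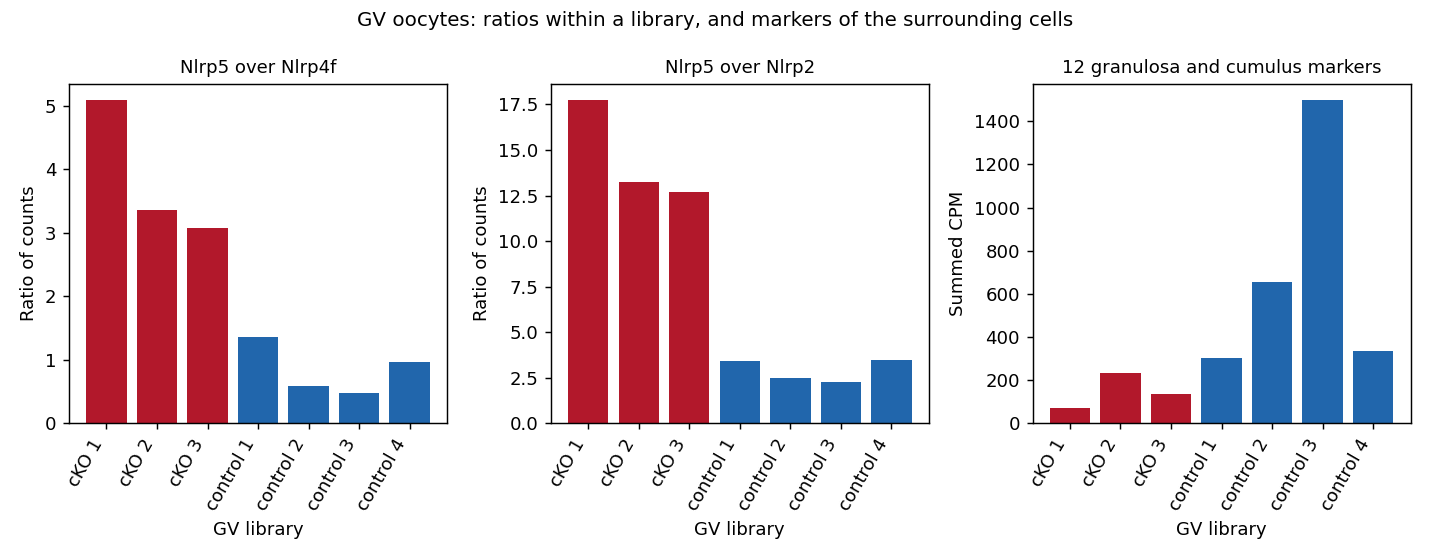
Ratio of Nlrp5 to Nlrp4f counts and to Nlrp2 counts, and summed CPM of 12 granulosa and cumulus markers, in each GV library, with cKO libraries (red) left of controls (blue). The lowest Nlrp5 to Nlrp4f ratio in a cKO library is 3.07 and the highest in a control is 1.36, while every cKO marker sum (at most 234 CPM) lies below every control sum (at least 302 CPM).

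Per kb of exon the members span a wide range in GV oocytes. Zbed3 led with a mean of 2627 CPM per kb in cKO and 3344 CPM per kb in control oocytes, and Padi6 followed with 1870 CPM per kb in cKO and 1112 CPM per kb in control oocytes. Nlrp2 was last, at 66.1 CPM per kb in cKO and 126 CPM per kb in control oocytes. From Padi6 to Nlrp4f each cKO neighbour overlaps the next in range, and in controls the neighbours overlap except Zbed3 with Padi6 and Ooep with Nlrp4f. Nlrp5 ranked 4th in cKO oocytes (696 CPM per kb) and 6th in controls (277 CPM per kb), while Nlrp4f ranked 7th (230.5 CPM per kb) and 4th (401 CPM per kb) in the same 2 groups. Together the 8 genes took 2.16%, 1.90% and 1.86% of assigned counts in cKO libraries, against 2.19%, 1.55%, 1.24% and 1.73% in controls, with overlapping ranges.

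Relatives of the members moved in both directions in GV oocytes. Of 9 tested oocyte Nlrp paralogs, 1 was called higher and 4 lower by edgeR, against 15.4% of all tested genes called higher and 13.4% lower. The median log2 change of these paralogs was -0.74, against 0.04 over all genes. Nlrp4c rose by 1.59 ± 0.29 (adjusted p = 0.00391), with 104, 119 and 110 CPM in cKO libraries, against 49.2, 29.6, 22.0 and 46.8 CPM in controls. Nlrp4a (-0.94 ± 0.19), Nlrp9b (-1.54 ± 0.31) and Nlrp9c (-1.30 ± 0.32) were among those that fell. These paralogs are close in sequence, and how reads shared by several were counted is not given in the sources used here.

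Of 4 tested KH-domain relatives 3 were called higher and 0 lower, with Khdc1a at 1.87 ± 0.44, Dppa5a at 1.48 ± 0.27 and Khdc1b at 0.69 ± 0.21, and the list's median was 1.21. Dppa5a, a KH-domain gene also known from stem cells, had 1644, 2216 and 1171 CPM in cKO libraries, against 736, 494, 436 and 744 CPM in controls. Padi2 rose by 1.93 ± 0.46 and was the 1 call among 3 tested Padi paralogs. Of 4 tested Tle paralogs, Aes (2.13 ± 0.25) and Tle4 (1.73 ± 0.25) rose. Of 9 tested lattice partners, genes whose proteins are reported in or near the lattices, the tubulins Tubb2b (1.54 ± 0.36) and Tuba1c (1.13 ± 0.22) rose and 0 fell. With 2 of 9 called higher, the lattice partners are not set apart from all tested genes.

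Of 6 tested oocyte transcription factors 4 were called higher and 0 lower in cKO oocytes, against 15.4% of all tested genes called higher and 13.4% lower. Nobox rose by 1.18 ± 0.36 and Figla by 0.93 ± 0.31, and both are known regulators of oocyte-specific genes. Sohlh1, active in early follicles, had 101, 65.8 and 95.7 CPM in cKO libraries, against 0.694, 0.245, 0.210 and 0.561 CPM in controls, and rose by 7.56 ± 0.41 (edgeR adjusted p = 4.16e-05), while Sohlh2 rose by 3.91 ± 0.37. Sohlh1 passed the filter on low counts through the cKO libraries, so its call only describes those values. Of 15 tested maternal-effect genes outside the complex, Dppa3 (1.22 ± 0.20) rose and Ago2 (-1.76 ± 0.29) and Btg4 (-1.65 ± 0.23) fell, and the list's median was 0.19.

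The authors' deposited table gave log2 changes of 1.24 for Nlrp5, 1.13 for Khdc3, -1.02 for Nlrp2 and -0.88 for Nlrp4f. Its p-value for Nlrp4f was 2.76e-06, but its adjusted p-values there were 0.482 or higher for the 4 genes. The adjusted p-values in the authors' deposited table for GV oocytes were not Benjamini-Hochberg values of its p-values, since 212 genes lay under 0.05 against 5208 when that adjustment was applied to the deposited p-values.

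In post-GV oocytes the Ythdf2 count did not fall in the knockout. Ythdf2 had 197 and 156 CPM in Ythdf2-/- libraries, against 90.1, 73.2 and 132 CPM in Ythdf2+/- libraries, a change of 0.84 ± 0.33 (edgeR adjusted p = 0.211). Which exons were removed is not in the labels, so a count over the whole gene checks nothing. The fit holds a batch term, with batch 1 made of knockout 1 and heterozygous 1 and 2, and batch 2 of knockout 2 and heterozygous 3. The authors' batch-adjusted values shift libraries within these sets alike (correlation across genes of 0.859 to 0.976) and across them in opposite directions (-0.932 to -0.970). Granulosa and cumulus markers, 13 of 14 listed, summed to 669 and 159 CPM in knockout libraries, against 1138, 1929 and 197 CPM in heterozygous libraries, with Ptx3 and Tnfaip6 at 0 in knockout 2. None of the 13 was called by edgeR, 9 had an unadjusted p under 0.05, and DESeq2 called 3 lower.

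Of the complex, Khdc3 alone was called in Ythdf2-/- oocytes, and it rose. That is 1 of 8 members, against 1.85% of all 13910 tested genes (1.38% higher, 0.474% lower). Ooep, Tle6, Khdc3 and Nlrp2 were higher in both knockout libraries than in every heterozygous one, which is 4 of 8 members, against 21.2% of tested genes whose groups did not overlap (14.2% higher, 6.96% lower). The members' median log2 change was 0.58, against -0.03 over all genes and 1.16 over 8 tested oocyte markers. Higher levels in the knockout were therefore not particular to the members.

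Khdc3 had 31.0 and 18.8 CPM in Ythdf2-/- libraries (518 and 243 counts), against 5.83, 2.86 and 7.33 CPM in Ythdf2+/- libraries (159, 42 and 144 counts). The log2 change was 2.23 ± 0.50, a 4.68-fold rise (edgeR adjusted p = 0.0306). Within batch 1 the log2 change was 2.80, from 1 knockout library, the higher of the 2, against 2 heterozygous ones. Its p would rest on the lone knockout varying like the heterozygous pair and is not given, and batch 2 holds 1 library of each kind. The call was lost without knockout 1 (1.36, adjusted p = 0.32), without heterozygous 1 (2.29, adjusted p = 0.153) and without heterozygous 2 (1.85, edgeR adjusted p = 0.151), where only 4 libraries remain. It was lost as well under RLE scaling, a stricter filter, and without the batch term, where edgeR called 0 genes of the whole table. DESeq2 called Khdc3 (2.15, adjusted p = 0.00204).

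Nlrp2 had 154 and 160 CPM in Ythdf2-/- libraries, against 68.8, 42.0 and 91.3 CPM in Ythdf2+/- libraries, a change of 1.20 ± 0.34 that did not pass (edgeR adjusted p = 0.0824). Tle6 had 99.6 and 96.2 CPM in knockout libraries, against 58.8, 22.9 and 64.1 CPM in heterozygous ones, at 0.99 ± 0.40 (edgeR adjusted p = 0.23). Ooep had 282 and 195 CPM in knockout libraries, against 194, 136 and 143 CPM in heterozygous ones, at 0.63 ± 0.31 (edgeR adjusted p = 0.322). Each of the 3 genes was higher in both knockout libraries, by a small margin in Ooep, and none reached the threshold.

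Nlrp5 had 271 and 419 CPM in Ythdf2-/- libraries, against 176, 91.3 and 467 CPM in Ythdf2+/- libraries (0.53 ± 0.36, edgeR adjusted p = 0.495). Padi6 had 459 and 800 CPM in knockout libraries, against 559, 211 and 1239 CPM in heterozygous ones (-0.11 ± 0.41, edgeR adjusted p = 0.923). Its sign was positive within batch 1 alone (0.24). In these genes the heterozygous library of batch 2 was the highest of all 5 and heterozygous 2 the lowest, so the groups overlap.

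Nlrp4f and Zbed3 kept that order among the heterozygous libraries. Nlrp4f had 1203 and 1773 CPM in Ythdf2-/- libraries, against 1353, 1157 and 2900 CPM in Ythdf2+/- libraries (-0.33 ± 0.32, edgeR adjusted p = 0.648). Zbed3 had 13015 and 17051 CPM in knockout libraries, against 19084, 11117 and 32466 CPM in heterozygous ones (-0.51 ± 0.39, edgeR adjusted p = 0.539). Heterozygous 2, the lowest heterozygous library for all 8 members, had the highest granulosa marker sum, and heterozygous 3 had the lowest sum of the 3. Heterozygous 2 was also lowest in summed oocyte markers, at 5947 CPM, against 10516 CPM in heterozygous 1 and 10332 CPM in heterozygous 3. Both knockout libraries lay above these sums, at 14620 and 12989 CPM. The part of granulosa and cumulus cells in the post-GV results was not tested.

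**Figure D3:**
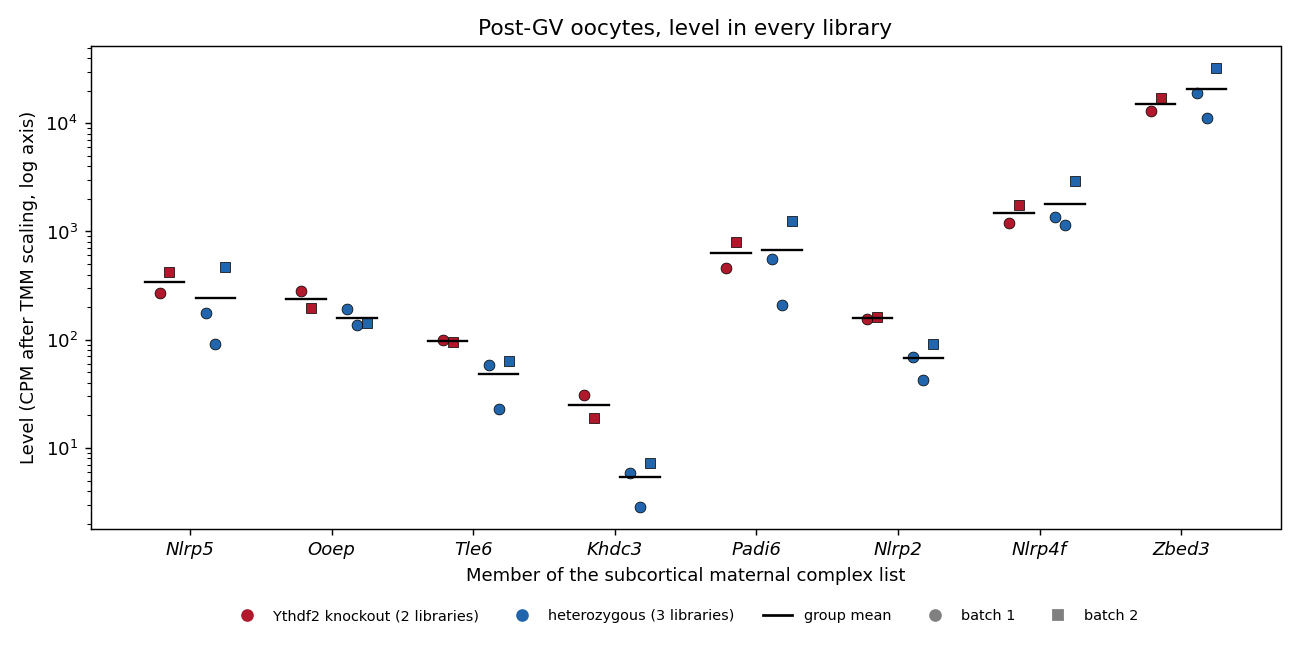
Level of each member in CPM (log axis) in every post-GV library, with Ythdf2 knockout libraries (red, 2) left of heterozygous ones (blue, 3), circles for batch 1, squares for batch 2 and bars at group means. Khdc3 and Nlrp2 are higher in both knockout libraries, while for Zbed3, Nlrp4f and Padi6 the heterozygous library of batch 2 is the highest point.

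Per kb of exon, Zbed3 stood far above the other members in post-GV oocytes, with 6738 CPM per kb in Ythdf2-/- and 9363 CPM per kb in Ythdf2+/- oocytes. Nlrp4f came next with 385 CPM per kb in knockout and 466 CPM per kb in heterozygous oocytes, its range overlapping that of Padi6 in both groups. Khdc3 was lowest, at 12.2 CPM per kb in knockout and 2.60 CPM per kb in heterozygous oocytes. Set beside the GV controls, where Khdc3 stood at 270.4 CPM per kb and Zbed3 at 3344 CPM per kb, the order of the members differs. The 2 oocyte tables were scaled separately and come from different crosses, so no comparison between them was tested.

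Of 4 tested KH-domain relatives of Khdc3, edgeR called Dppa5a alone in Ythdf2-/- oocytes, while DESeq2 called 2 higher. Of all tested genes edgeR called 1.38% higher. Dppa5a had 38.8 and 39.6 CPM in knockout libraries, against 13.5, 4.64 and 9.01 CPM in heterozygous ones, and rose by 2.11 ± 0.48 (edgeR adjusted p = 0.0325). Khdc1a was at 1.65 ± 0.54 (edgeR adjusted p = 0.165), Khdc1c at 0.78 ± 0.50 (adjusted p = 0.468) and Khdc1b at 0.15 ± 0.34 (edgeR adjusted p = 0.877), the last with overlapping libraries. Of 9 tested Nlrp paralogs 0 were called by edgeR, with 2 at an unadjusted p under 0.05 and 0 called by DESeq2, and their median was 0.08. Of 9 lattice partners 0 were called by edgeR, with 2 at an unadjusted p under 0.05 and 0 called by DESeq2. Among 8 tested oocyte markers, Mos, the kinase that holds mature oocytes at metaphase, named here after its values were seen, had 882 and 661 CPM in knockout libraries, against 55.0, 22.0 and 29.6 CPM in heterozygous ones (4.50 ± 0.39, edgeR adjusted p = 5.81e-05), and all 8 had positive log2 changes with a median of 1.16. Of these 8 markers edgeR called 1 higher and DESeq2 called 4 higher.

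In stem cells, where the table lists 6 of the 8 genes, Ooep had the highest level per kb in all 6 groups. Its mean was 72.9 CPM per kb in Mettl3-/- cells and 119.7 CPM per kb in wild type. Padi6, with at most 9 counts in any library, did not pass the filter on low counts, so 5 members were tested in each comparison. Over the 5 comparisons, which share the 2 wild-type libraries, 7 of 25 tests were called. Of all 11951 tested genes 30.4% were called in Mettl3-/- cells (15.2% higher, 15.1% lower), where 1 member was higher and 2 were lower. In triple knockout cells 25.1% were called (13.3% higher, 11.8% lower) and 2 members were higher. In Ythdf1-/- cells 3.45% were called (1.95% higher, 1.5% lower) and 1 member was higher, and in Ythdf3-/- cells 2.84% were called (1.74% higher, 1.1% lower) and 1 member was higher. In Ythdf2-/- cells 1.91% were called (0.837% higher, 1.07% lower) and 0 members by edgeR, with 1 at an unadjusted p under 0.05 and 0 called by DESeq2. Replicate libraries of a group differed by less than counting error (chi-square per gene from 0.675 to 0.832 in 6 of 6 pairs), so the p-values may understate the spread between cultures.

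Of the targeted genes, Mettl3 fell by 3.07 ± 0.18 in Mettl3-/- cells, at 16.6 ± 2.01 CPM, against 139 ± 2.29 CPM in wild type (SD, n = 2 each). Ythdf1 changed by -0.00 ± 0.09 in Ythdf1-/- cells, Ythdf2 by -0.85 ± 0.29 in Ythdf2-/- cells and Ythdf3 by 0.14 ± 0.23 in Ythdf3-/- cells, and none of these 3 was called. Counts over whole genes need not change when the deleted part is small, and its extent is not given.

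Khdc3 was the member with the largest log2 changes in stem cells, on few counts. It had 13 and 21 counts in Mettl3-/- libraries (21.4 and 24.6 CPM), 13 and 9 counts in triple knockout (20.3 and 12.3 CPM) and 14 and 12 counts in Ythdf1-/- (15.6 and 13.1 CPM), against 6 and 2 counts in wild type (5.41 and 1.78 CPM). It rose by 2.65 ± 0.44 in Mettl3-/- (edgeR adjusted p = 1.55e-06), by 2.12 ± 0.50 in triple knockout (adjusted p = 0.000943) and by 1.95 ± 0.48 in Ythdf1-/- cells (edgeR adjusted p = 0.00885). Leaving out 1 wild-type library moved these values widely. Without wild-type replicate A they were 3.59 in Mettl3-/-, 3.06 in triple knockout and 2.91 in Ythdf1-/- cells, and without wild-type replicate B the Mettl3-/- value was 2.08, still called. In Ythdf2-/- cells it was at 1.58 ± 0.52 and in Ythdf3-/- cells at 1.15 ± 0.59, not called. The calls in triple knockout and Ythdf1-/- cells were lost without wild-type replicate B, the library with 2 counts, at 1.54 and 1.38, and without replicate A of the same knockout, at 1.74 in triple knockout and 1.84 in Ythdf1-/- cells. DESeq2 kept the call in Mettl3-/- cells and made none in the other 2. Khdc3 passed the filter on low counts through knockout libraries, where it was higher, and its wild-type counts alone were too low to pass. The stem cell calls of Khdc3 therefore describe those values and give no separate support for a rise.

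Ooep moved in opposite directions in 2 knockouts. It had 355 and 336 CPM in Ythdf3-/- libraries and 156 and 156 CPM in Mettl3-/- libraries, against 250.4 and 261 CPM in wild type. It rose by 0.43 ± 0.08 in Ythdf3-/- (edgeR adjusted p = 0.000431) and fell by 0.71 ± 0.09 in Mettl3-/- cells (edgeR adjusted p = 2.54e-09). DESeq2 called the fall and not the rise (0.43, adjusted p = 0.381). In the triple knockout Ooep was at -0.24 ± 0.08, with 217 and 218 CPM (edgeR adjusted p = 0.0738).

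Nlrp4f had 49.3 and 41.0 CPM in Mettl3-/- libraries, against 98.2 and 90.9 CPM in wild type, and fell by 1.09 ± 0.15 (edgeR adjusted p = 3.69e-07), a call kept in 18 of 18 alternatives. In the 4 Ythdf knockouts its log2 change lay between -0.08 and 0.26 and was not called. Tle6 had 21.8 and 39.7 CPM in triple knockout libraries (14 and 29 counts), against 12.6 and 21.4 CPM in wild type (14 and 24 counts). It rose by 0.87 ± 0.32 (edgeR adjusted p = 0.039), a call that was lost without triple knockout replicate B (0.35), without wild-type replicate A (0.54), without Ythdf2-/- replicate B (0.87, edgeR adjusted p = 0.0507) and in DESeq2 (0.86). Zbed3 was not called in any of the 5 comparisons and ranged from -0.07 to 0.33.

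**Figure D4:**
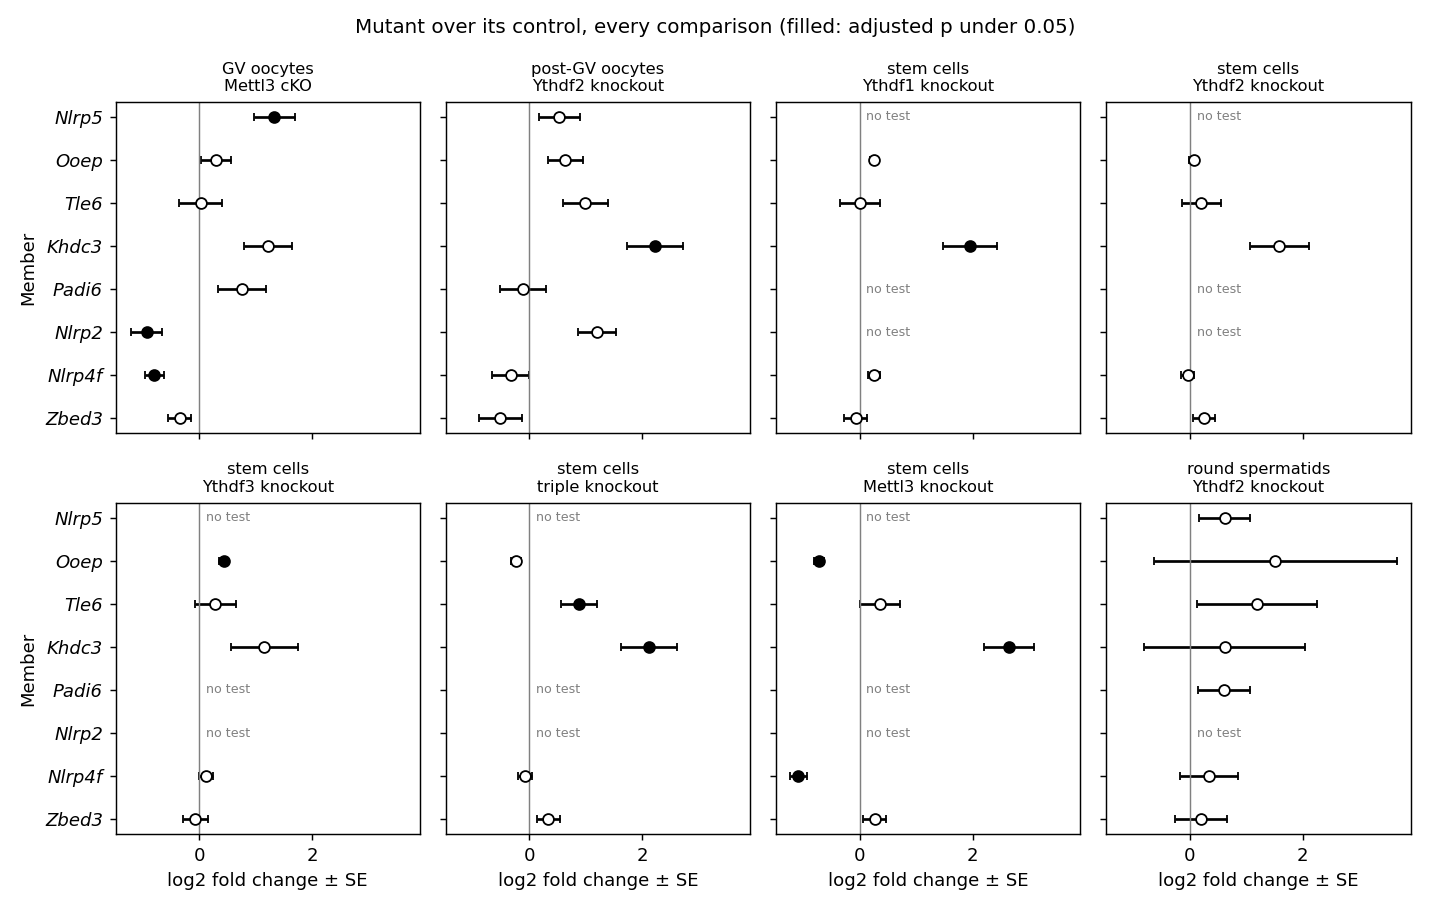
Log2 fold change of mutant over control with its standard error for each member in 8 comparisons (filled circles have an edgeR adjusted p under 0.05, and members marked "no test" are unlisted or were filtered). Nlrp4f lies left of 0 in Mettl3-deficient GV oocytes and stem cells, and Khdc3 lies right of 0 in every panel.

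Nlrp4f was called lower and Khdc3 had a positive log2 change in both Mettl3 comparisons, GV oocytes and stem cells, while Ooep fell in Mettl3-/- stem cells and was at 0.29 in GV oocytes. These comparisons come from separate fits and the difference between them was not tested. Among relatives in stem cells, Khdc1a was called higher in triple knockout (3.08 ± 0.45) and Mettl3-/- cells (2.50 ± 0.49), and Khdc1c (2.64 ± 0.55) and Nlrp4c (3.46 ± 0.53) in triple knockout. Khdc1a, Khdc1c and Nlrp4c had at most 3.57 CPM in wild type. They passed the filter on low counts through the knockout groups in which they were called, so these calls only describe those values. Dppa5a, higher in both oocyte comparisons, fell in Mettl3-/- cells (-0.39 ± 0.07), with 340 and 334 CPM, against 437 and 445 CPM in wild type. It rose in Ythdf1-/- (0.24 ± 0.06), Ythdf2-/- (0.27 ± 0.06) and Ythdf3-/- cells (0.32 ± 0.07). Of these KH-domain relatives DESeq2 called 1 higher and 1 lower in Mettl3-/- cells, 1 higher in triple knockout and 0 in each single Ythdf knockout. Padi2 rose in Mettl3-/- cells (1.21 ± 0.23) and fell in triple knockout (-0.96 ± 0.35), where Padi3 fell as well (-1.60 ± 0.39), but DESeq2 called 0 Padi paralogs in either knockout.

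In round spermatids none of the members was called. Ythdf2 itself had 29.9 and 27.9 CPM in Ythdf2-/- libraries, against 29.2 CPM in the wild-type library. Of 7 members 0 were called by edgeR, 0 had an unadjusted p under 0.05 and DESeq2 called 0, against 4.9% of 16031 tested genes called by edgeR (2.25% higher, 2.64% lower). Padi6 had 11.6 and 7.68 CPM in Ythdf2-/- libraries, against 6.36 CPM in wild type, and Nlrp5 13.3 and 7.37 CPM in Ythdf2-/- libraries, against 6.74 CPM in wild type. Ooep had 12 and 7 counts in Ythdf2-/- libraries and 5 in wild type. All 7 log2 changes were positive, from 0.20 ± 0.46 (Zbed3) to 1.52 ± 2.15 (Ooep), with a median of 0.61 against 0.08 over all genes, and with 1 wild-type library its own deviation moves every gene's value.

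**Figure D5:**
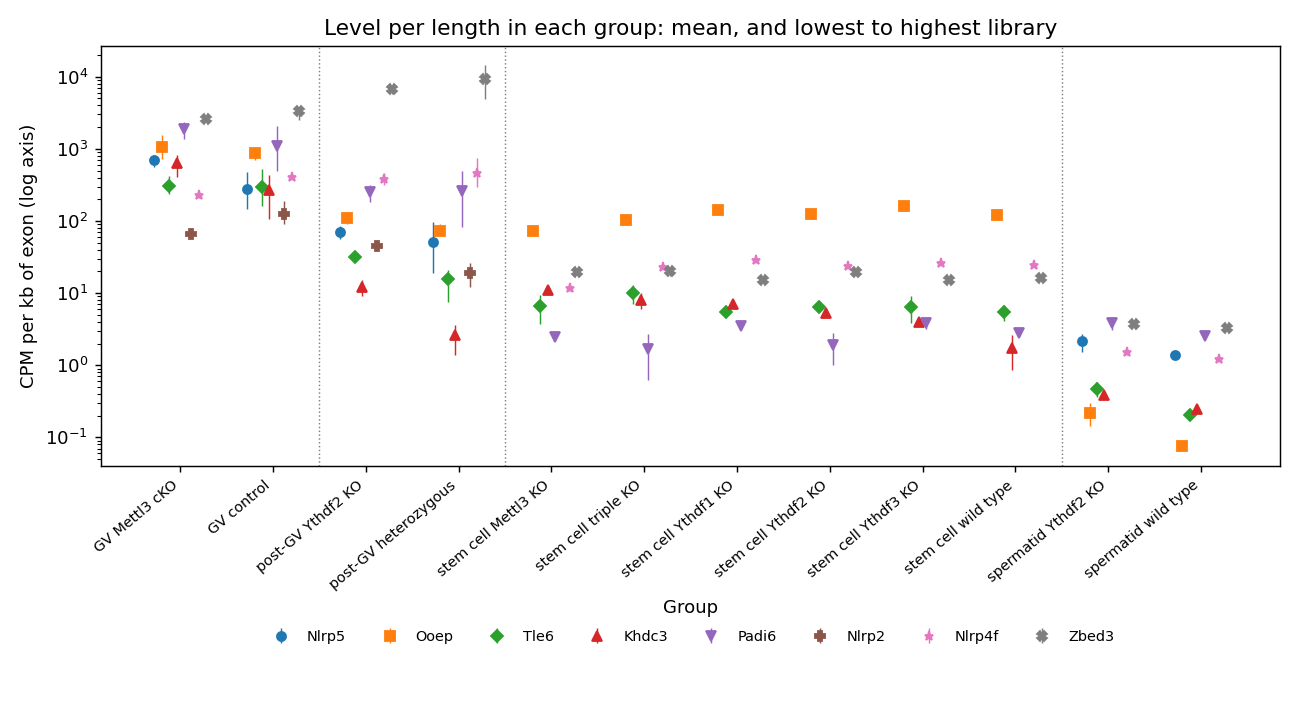
Level of each member in CPM per kb of exon (log axis) in the 12 groups, with points at group means and lines from the lowest to the highest library, mutants left of their control within each experiment. Zbed3 is the highest member in all 4 oocyte groups and Ooep in all 6 stem cell groups, and the experiments (dotted lines) were scaled separately.

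Over the 12 groups the mean log2(CPM + 1) profile of the 8 members, with unlisted genes at 0, was most like that of Oas1c (Pearson r = 0.992), Rassf5 (0.989), Taf1a (0.986), Ube2g1 (0.985) and Naa50 (0.983). The members' own profiles correlated with that mean, of which each is a part, at 0.705 (Ooep) to 0.964 (Nlrp2). Nlrp2 is unlisted, and so was set to 0, in every stem cell and spermatid group. These are descriptions over 12 group means, with no test.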

How the data were processed

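RNA-seq of 27 libraries was analysed from 4 tables, 1 per experiment. The deposited counts per gene were made by the authors and were the only input to the tests. Per the submitters' processing notes the genome was mm10 and the tools were STAR 2.4.2a, CASAVA 1.8.2, DESeq2 and cutadapt. How reads were counted, with which annotation, and whether duplicates were removed is not stated. The tables list genes with at least 6 counts in 1 library, so weaker genes are not listed. The authors also deposited normalized signal, which is counts over 1 size factor per library. The deposited log2 values (regularized, batch-adjusted and fold changes), p-values and mean normalized counts were used for checks. All per-sample columns matched a sample, with 0 left over, and 1 post-GV title that repeats replicate 2 was taken as replicate 3 from its bracketed name.

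Each table was fitted with edgeR 4.0.16 under R 4.3.3, after TMM scaling and edgeR's filterByExpr by group, by the robust quasi-likelihood test. DESeq2 1.42.0 served as an alternative. Tested genes numbered 13551 of 16598 in GV oocytes, 13910 of 16304 in post-GV oocytes, 11951 of 14006 in stem cells and 16031 of 17715 in spermatids, and adjustment ran over all of them. The scripts were tested on simulated data, with 100 genes changed 2-fold and 100 changed 4-fold. The GV fit found 12 and 85 of them, with 8 false calls, and the post-GV fit 8 and 70, with 13 false calls. The fit of triple knockout stem cells found 80 and 96, and the spermatid fit 36 and 94. Most 2-fold changes can therefore go uncalled in the oocyte fits. The oocyte fits compare 3 with 4 and 2 with 3 libraries, stem cells used 1 fit to 12 libraries, and in spermatids the spread comes from 2 libraries. Exon lengths and positions are from GENCODE M21 (GRCm38), and overlapping genes or paralogs may share reads. Alternatives were RLE scaling, no filter, a filter of 5 CPM, DESeq2, replicate blocks, batch choices, compared groups only and leaving out libraries. The genes named are the 8 members, the targeted genes, called genes of the related lists, up to 4 each, and the 5 most alike profiles. The members and lists were chosen with earlier results of these data known. Intervals and standard errors cover counting error and the spread between samples alone.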

Additional observations from a re-analysis of the deposited data

How the results depend on the processing

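In GV oocytes the number of members called was 3, and 4 with DESeq2, 3 under RLE scaling and both other filters, 2 without controls 2 and 3, and 1 to 5 when 1 library was left out. Tle6 had negative log2 changes under RLE scaling (-0.065), DESeq2 (-0.065), the 5 CPM filter (-0.0063), without controls 2 and 3 (-0.57) and in 3 of 7 leave-outs (range -0.32 to 0.43), and Ooep ran from -0.17 without cKO library 3 to 0.44. With replicate number as a block the GV count was 5. Pairing was checked by correlating deviations from the group means, which gave 0.417, 0.0919 and 0.245 for numbers 1 to 3. Libraries 1 and 3 of the cKO correlated best with the control of their own number, and library 2 with control 3 (0.133). The labels do not say that numbers mark pairs, so the block was kept as an alternative only.

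In post-GV oocytes the count was 1, and 0 under RLE scaling, the 5 CPM filter and without the batch term, and 0 to 1 when 1 library was left out. With replicate number as a block in place of the batch the count was 0, and Padi6 (0.82), Nlrp4f (0.22) and Zbed3 (0.032) changed sign. Same-numbered libraries correlated at 0.432 and -0.606. Deviations of 2 knockout libraries from their mean mirror each other, so each heterozygous library has opposite values with them (heterozygous 1: 0.432 and -0.432). These correlations therefore cannot check pairing. Padi6 was positive in batch 1 alone (0.24) and ran from -0.63 to 0.26 in leave-outs, and Nlrp5 from -0.16 without knockout 1 to 1.02. In stem cells the count was 7, with DESeq2 3, with the replicate block 7, and 5 to 7 in leave-outs, and same-letter libraries correlated at -0.00097 to 0.116. Leave-outs turned the sign of uncalled members, with Tle6 at -0.57 to 0.79 in Mettl3-/-, -0.31 to 0.43 in Ythdf1-/-, -0.11 to 0.63 in Ythdf2-/- and -0.53 to 0.71 in Ythdf3-/- cells, Nlrp4f at -0.091 to 0.026 in Ythdf2-/- cells and Zbed3 at -0.17 to 0.0043 in Ythdf3-/- cells. The spermatid count was 0 in 4 of 4 alternatives. The causes were not tested. Stem cell depth, at most 1111764 counts per library, leaves Khdc3, Tle6 and Padi6 with few counts.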

Other observations

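Maternal-effect genes outside the complex were also measured in stem cells. Dppa3, which protects the maternal genome in the zygote, was called higher by edgeR in Mettl3-/- (1.71 ± 0.16), triple knockout (2.10 ± 0.15), Ythdf1-/- (1.85 ± 0.15) and Ythdf2-/- cells (1.02 ± 0.17), comparisons that share 2 wild-type libraries. DESeq2 called 1 gene of this list higher in Mettl3-/-, 2 in triple knockout, 1 in Ythdf1-/- and 0 in Ythdf2-/- cells, and 0 lower in these 4 knockouts. Of 12 tested genes of that list, 5 were called higher and 0 lower by edgeR in triple knockout cells, against 13.3% of all genes called higher and 11.8% lower. Among them were Npm2 (2.86 ± 0.52), Trim28 (0.38 ± 0.07) and Atg5 (0.64 ± 0.17). Npm2 had 2.70 and 2.67 CPM in wild type and passed the filter on low counts through the triple knockout, so its call only describes those values. In Mettl3-/- cells Dppa3 rose and Zfp57 fell by 0.34 ± 0.07, with 1 gene called in each direction by edgeR, and the fall was not called by DESeq2.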
